A study of Mus musculus with 22 samples.

Results

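The genes described here are 40 interferon response genes, chosen by symbol and all present among the 29367 genes of the deposited table. They were followed in 22 ribotag libraries from optic nerve astrocytes of mice with elevated intraocular pressure (IOP). The libraries form 4 groups, the unmyelinated optic nerve head (ONH) and the proximal, myelinated optic nerve proper (ONP), each taken 7 days (n = 4 libraries per region) or 30 days (n = 7 per region) after microbeads had been injected into one eye. Microbead occlusion is a model of glaucoma in which the beads obstruct the outflow of fluid from the eye. Each library is a pool of tissue from 4 mice (2 males and 2 females) aged 3 to 4 months, so it carries the mean of its pool and not the spread between mice. All mice, in every group, were Rpl22 HA/HA Cre+ (labelled WT), bred from B6J.129(Cg)-Rpl22tm1.1Psam/SjJ ribotag mice and a GFAP-Cre line. In these animals a mouse GFAP promoter drives Cre constitutively, so every cell that has ever expressed the Cre carries the hemagglutinin (HA) tag on its ribosomes, and the libraries hold the mRNA that came down with an antibody to the tag. Libraries from eyes without elevated pressure were not analysed here, so each value below compares the regions or the times with each other and not with a healthy nerve.

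Interferons are secreted proteins that cells release on sensing viral or misplaced nucleic acid. Type I interferons bind the receptor Ifnar1/Ifnar2 and signal through the kinases Jak1 and Tyk2 to a complex that includes Stat2 and Irf9 and binds the interferon-stimulated response element (ISRE) in promoters. Type II interferon acts at the gamma-activated site (GAS). The genes switched on in this way encode sensors, antiviral effectors, the ubiquitin-like protein Isg15 with its conjugation machinery, and the GTPases of the guanylate-binding and immunity-related families, and in nervous tissue both microglia and astrocytes are known to express many of them.

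Library totals lay between 16819713 and 33307092 estimated counts in the 7-day ONH group, 18026821 and 24746846 in the 30-day ONH group, 16292489 and 28729105 in the 7-day ONP group and 17583904 and 25197193 in the 30-day ONP group. The summed level of 10 astrocyte markers was between 13300 and 32900 CPM (estimated counts scaled to a common library total) in all groups, and no marker was at 0 in a whole group. Other cell types were also represented. The sum of 11 microglia markers ran from 202 to 2110 CPM in the 7-day ONH, 185 to 4240 in the 30-day ONH, 1610 to 2720 in the 7-day ONP and 256 to 4690 in the 30-day ONP. Replicate 7 held the highest microglia sum in both regions at 30 days, and some of the results below are also given without it. Oligodendrocyte markers summed to between 13300 and 40100 CPM in the ONH and between 25500 and 108000 in the ONP. Genes of pigment cells summed to 74.1 to 952 CPM in the ONH libraries and to 3.07 to 8.18 in the ONP libraries. In such pooled tissue, fewer cells of one type and less RNA per cell cannot be told apart.

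The promoters of the members carried the interferon response motifs more often than promoters at large. RefSeq promoter sequence (GRCm38.p6, from 250 bases before to 50 bases after the gene start) was at hand for 30 of the 40 members. The ISRE core is spelled GAAA, NN and GAAA in direct succession or, on the other strand, TTTC, NN and TTTC. It was found in 17 of these 30 (56.7%) and in 1079 of all 27025 genes with promoter sequence (3.99%). The GAS, spelled TTCNNNGAA, which reads the same on both strands, was found in 8 of the 30 (26.7%) and in 2582 of all these genes (9.55%). The motifs overlapped each other in 24 single promoter sequences, of which a gene can have more than 1. The 10 members with no entry are Dhx58, Zbp1, Oas2, Usp18, Parp9, Parp14, Mx1, Rtp4, Iigp1 and Ifi27. The stretches shown next, read in the direction of the gene, belong to members the results turn on or that stand for a family, with the ISRE core in capitals. In Isg15 (chr4:156200850-156200921, minus strand) 3 matches overlap in 1 run, and in Bst2 (chr8:71537562-71537627, minus strand) 2 matches overlap. Ifit1 (chr19:34640760-34640838, plus strand) has 2 separate matches. Ifit3 (chr19:34583348-34583441, plus strand) and Ifit3b (chr19:34607744-34607837, plus strand) are neighbours whose stretches are identical at 94 of 94 bases, and Igtp (chr11:58199497-58199555, plus strand) has 1 match.
Isg15: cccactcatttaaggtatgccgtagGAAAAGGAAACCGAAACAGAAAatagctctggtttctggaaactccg
Bst2: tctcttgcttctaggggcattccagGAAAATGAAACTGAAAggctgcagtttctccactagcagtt
Ifit1: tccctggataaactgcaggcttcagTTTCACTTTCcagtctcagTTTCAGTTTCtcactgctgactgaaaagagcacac
Ifit3: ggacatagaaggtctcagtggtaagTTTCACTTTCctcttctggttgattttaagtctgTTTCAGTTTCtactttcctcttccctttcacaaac
Ifit3b: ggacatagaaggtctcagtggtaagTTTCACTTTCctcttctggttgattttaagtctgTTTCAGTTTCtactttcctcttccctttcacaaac
Igtp: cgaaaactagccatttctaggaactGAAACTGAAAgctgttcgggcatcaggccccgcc
For the GAS, the stretch of Irf1 (chr11:53769899-53769957, plus strand), a transcription factor known as a target of type II interferon, is shown with the site in capitals.
Irf1: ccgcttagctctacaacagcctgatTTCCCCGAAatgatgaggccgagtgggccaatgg
Members with and without the ISRE core are set side by side for the differences described below. In the comparison of ONH with ONP at 30 days the median log2 fold change (log2FC) was 0.54 for the 17 with a match, 0.80 for the 13 without and 0.81 for the 10 with no entry, and at 7 days it was 0.86, 0.78 and 0.88. These matches are descriptions of letters in a window and say nothing of binding in these cells.

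The list spanned a wide range of levels in these astrocyte libraries. On a scale per length (CPM per kilobase of exon, averaged over the 4 groups), Ifitm3, which blocks entry of viruses at the membrane, stood highest at 630.1, followed by Ifit3 at 439, Ifit3b at 160.4, Ifi27 at 105, Bst2 at 101 and Ifit1 at 70.1. The lowest were Oas2 at 0.213, Mx1 at 0.514, Parp14 at 1.14 and Samd9l at 1.23. Averaged over the members, the mean log2(CPM + 0.5) was 5.89 ± 0.42 (SD, n = 4) in the 7-day ONH, 5.26 ± 0.37 (n = 7) in the 30-day ONH, 5.09 ± 0.48 (n = 4) in the 7-day ONP and 4.54 ± 0.34 (n = 7) in the 30-day ONP. The library means ranged from 5.44 to 6.28, 4.64 to 5.76, 4.63 to 5.74 and 4.13 to 5.17 in the same order, so neighbouring groups overlapped.

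**Figure D1:**
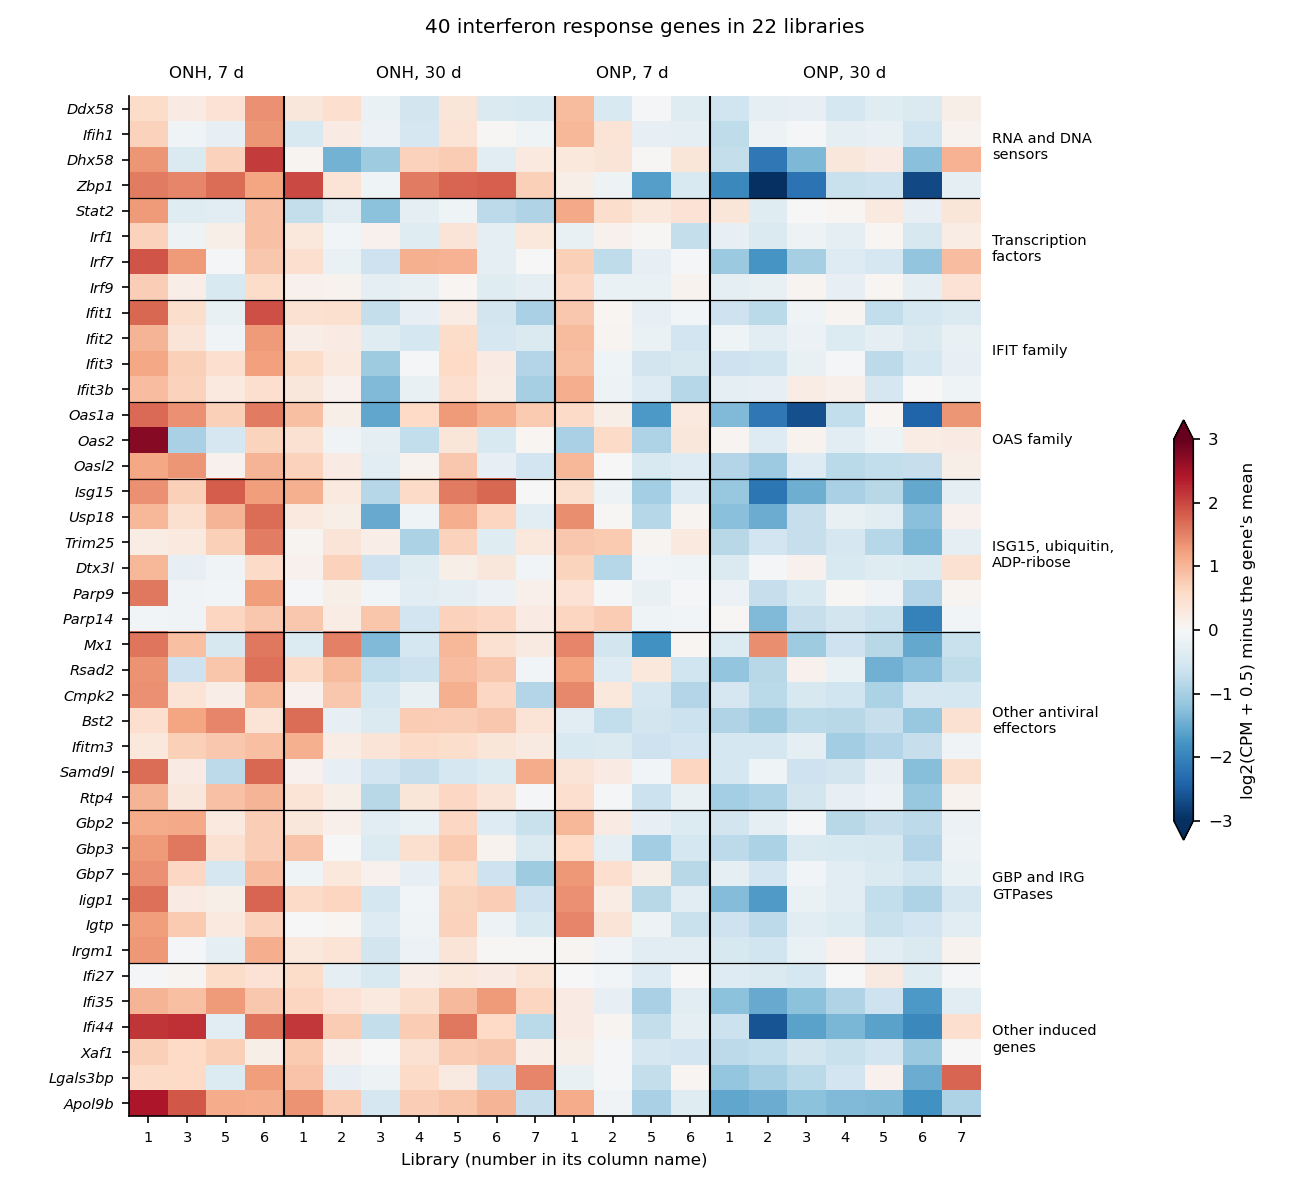
Level of each of the 40 members (rows, by role) in each of the 22 libraries (columns, by group), as log2(CPM + 0.5) minus the member's mean over all libraries. Most members are above their mean in the 7-day ONH libraries and below it in the 30-day ONP libraries, with single libraries such as 7-day ONP library 1 and 30-day ONP replicate 7 above the rest of their groups.

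The first question is whether the astrocytes of the ONH and the ONP differed in these genes under elevated IOP. At 30 days, 20 of the 40 members differed between the regions, and 19 of these were higher in the ONH (edgeR quasi-likelihood test, Benjamini-Hochberg adjusted p under 0.05 over 15133 genes). In the same comparison 41.8% of all genes tested were called, 21.8% as higher in the ONH and 20% as lower, so this is a contrast in which a large part of the transcriptome differed and the members' count in the upward direction stood above that background while their count in the downward direction, Stat2 alone, stood below it. The median log2FC of the members was 0.66, against -0.01 over all genes, with 37 of 40 above 0 and a range from -0.65 to 2.89. The DNA sensor Zbp1 differed most (log2FC 2.89), followed by the lipoprotein-family gene Apol9b (2.34), Ifi44 (2.10) and Isg15 (2.05). The groups did not overlap for 5 members, Apol9b, Ifi35, Ifitm3, Xaf1 and Zbp1, all higher in the ONH, beside 8.48% of all genes that were higher without overlap. Per the study's methods, each pool of mice gave both an ONH and an ONP library. At 30 days equal replicate numbers were taken to mark the same pool, which the labels do not state. On that assumption the regions can also be set against each other within each of the 7 pools. The ONH level was higher in all 7 pools for 7 members (Zbp1, Isg15, Ifitm3, Ifi27, Ifi35, Xaf1 and Apol9b) and in 6 of 7 for 11 more. The same count was not made over all genes, so these numbers cannot be set against a background. Only Stat2 was higher in the ONH in as few as 1 of the 7. With the replicate as a block, 23 members were called, in a fit that called 44.4% of all genes. Usp18 (adjusted p = 0.0595) and Gbp2 (adjusted p = 0.0665) were then no longer called, and Irf1, Irf7, Oas1a, Ifi27 and Lgals3bp were, with adjusted p from 0.0044 to 0.0355.

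At 7 days the same contrast, with fewer libraries, gave 9 members called, all higher in the ONH, where 13.2% of 14752 genes were called and 6.34% were called higher. These were Zbp1, Isg15, Bst2, Ifitm3, Rtp4, Gbp3, Ifi35, Ifi44 and Xaf1, and all 9 were among the 20 called at 30 days, in other mice. How often genes called at 7 days were called again at 30 days was not counted over all genes. The overlap is therefore not shown to be particular to the members. The median log2FC was 0.82 against 0.07 over all genes, and 39 of 40 were above 0, the exception being Stat2 at -0.07. The ONH and ONP libraries did not overlap for 6 members (Bst2, Ifi35, Isg15, Ifitm3, Zbp1 and Oas1a, all higher in the ONH), which is 6 of 40 beside 9.88% of all genes. Oas1a itself, an enzyme that makes the second messenger of the RNase L pathway, had a log2FC of 1.38 ± 0.43 (SE) and an adjusted p of 0.0588. The count at 7 days depended on single libraries. It was 14 without ONP library 1 (8.85% of all genes called), 4 without ONP library 6 (7.26%), 5 without ONH library 1 (11.7%) and 5 without ONP library 2 (7.56%). The numbers 1, 5 and 6 occur in the column names of both regions at 7 days, and with those 6 libraries alone and the number as a block (chosen after seeing the data) 7 members were called, beside 5.89% of all genes. Rtp4 (adjusted p = 0.0649), Ifi35 (0.0588), Ifi44 (0.0853) and Xaf1 (0.0986) were not among them, and Oas1a (0.0424) and Apol9b (0.0418) were.

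**Figure D2:**
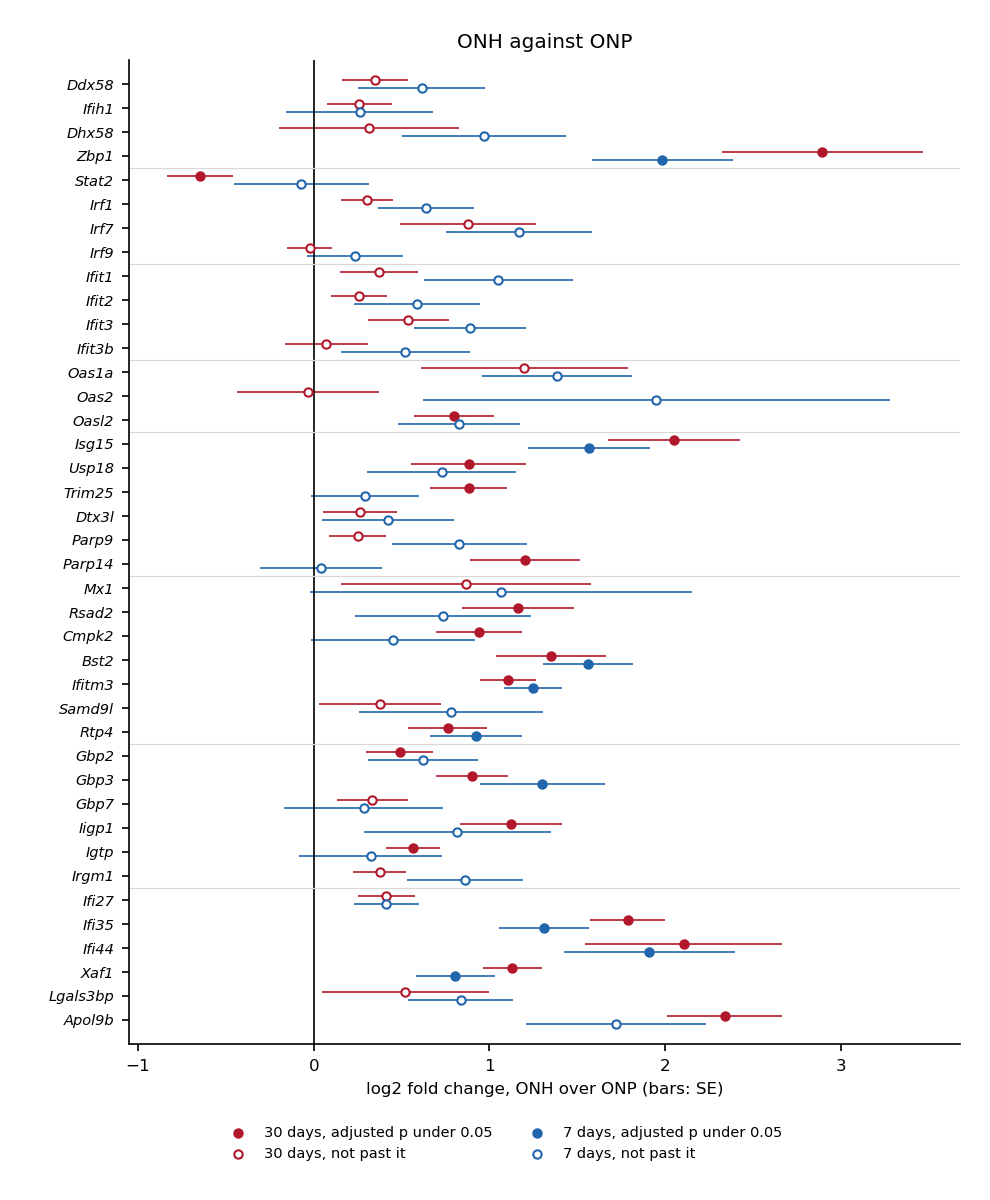
log2FC of ONH against ONP (horizontal axis, values above 0 are higher in the ONH) for each member by role, at 7 days (blue) and 30 days (red), with bars of 1 SE and filled points where the adjusted p was under 0.05. Nearly all points lie to the right of 0, Zbp1 reaches 2.89 at 30 days and 1.98 at 7 days, and Stat2 is the filled point to the left of 0.

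The second question is how the members moved between 7 and 30 days, still under the same single injection. In the ONH no member was called by edgeR, as was true of every other gene (0% of 15668). At an unadjusted p under 0.05 there were 20 members, all with lower levels at 30 days, where 6.8% of all genes were lower at that threshold. By DESeq2 4 members were called lower, Gbp2, Ifit1, Igtp and Stat2, beside 0.931% of the genes it tested, and limma-voom called 0. The median log2FC was -0.72 over the members and -0.02 over all genes. The value was below 0 for 39 of 40, Parp14 at 0.11 being the exception, whereas 51.6% of all genes were below 0. The smallest adjusted p of any member was 0.189, and no member had groups that did not overlap (0.543% of all genes were lower without overlap).

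In the ONP, 3 members fell from 7 to 30 days, namely Trim25, Apol9b and Igtp. In that comparison 17% of 15491 genes were called, 9.21% of them as lower, so 3 of 40 is near the background. At an unadjusted p under 0.05 there were 19 members, all lower, against 16.9% of all genes. By DESeq2 14 members were called lower, against 9.03%. The median log2FC was -0.58 (all genes -0.01), and 38 of 40 values were below 0, with Oas2 at 0.10 and Lgals3bp at 0.15 the exceptions. Trim25 was the only member whose groups did not overlap (5.55% of all genes were lower without overlap). Single libraries moved both the median and the count. Without 7-day ONP library 1, which held the highest value of 33 members, the median was -0.27. The count was 11 without 30-day ONP replicate 7 (16.5% of all genes called in either direction), 11 without 7-day ONP library 5 (14%), 6 without 7-day library 6 (9.12%) and 5 without 30-day replicate 3 (13.5%), and in the other leave-one-out fits it was no lower than 2. In the fit without replicate 7, Isg15, Bst2, Ifi35, Ifi44, Oasl2, Samd9l, Stat2 and Xaf1 were called lower in addition, with adjusted p from 0.0236 to 0.0491. The ONP comparison over time and the regional comparison at 30 days share the 7 ONP libraries of day 30, and the members' values in one are therefore not independent of those in the other.

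Whether the change over time differed between the regions was tested as an interaction, the ONP change minus the ONH change. No member was called by edgeR, by DESeq2 or by limma-voom, where 0.543% of 16748 genes were called by edgeR and 2.28% of those tested by DESeq2. At an unadjusted p under 0.05 there was 1 member, Parp14, beside 12.6% of all genes. The median of the members was 0.13 and that of all genes 0.01, with 24 of 40 above 0. The largest values belonged to Oas2 (1.96 ± 1.23 SE, adjusted p = 0.543), Parp14 (-1.18 ± 0.50, adjusted p = 0.325) and Zbp1 (-0.93 ± 0.81, adjusted p = 0.702). A difference in the time course between the regions was thus not detectable for any member in these libraries.

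**Figure D3:**
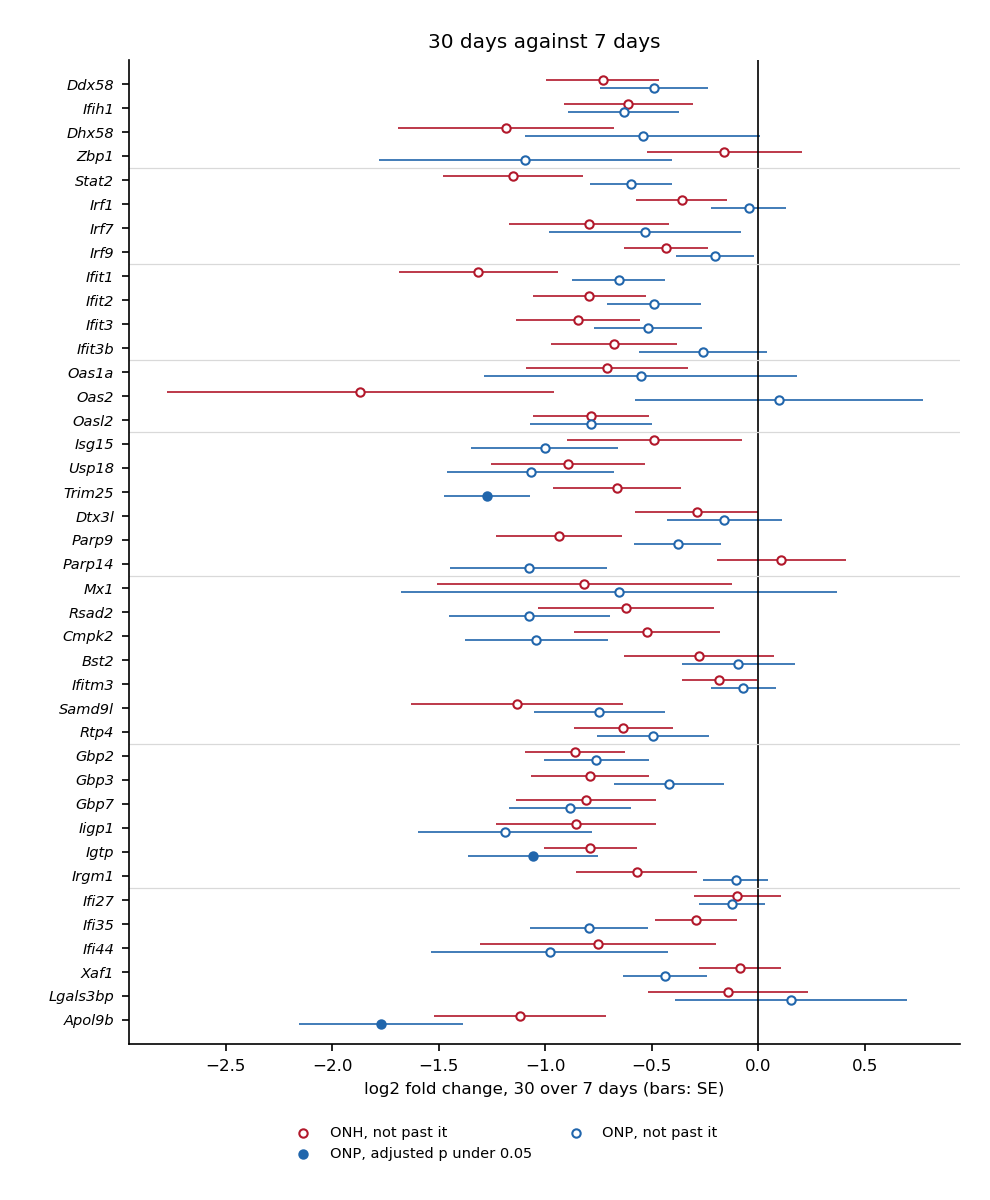
log2FC of 30 against 7 days (horizontal axis, values below 0 are lower at 30 days) for each member by role, in the ONH (red) and the ONP (blue), with bars of 1 SE and filled points where the adjusted p was under 0.05. Nearly all points lie to the left of 0 in both regions, and the filled ones are Trim25, Apol9b and Igtp in the ONP.

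In the following paragraphs, which go through the members by role, a gene is called where edgeR's adjusted p over all libraries of the comparison was under 0.05, and calls of another fit are named as such. They give CPM values for the 7-day libraries in the order of their library numbers (1, 3, 5 and 6 for the ONH, and 1, 2, 5 and 6 for the ONP) and the lowest, median and highest of the 7 libraries at 30 days. Sensors of foreign nucleic acid are Ddx58, Ifih1 and Dhx58, which detect RNA in the cytoplasm, and Zbp1, which binds left-handed nucleic acid and can start cell death. Zbp1 (chr2:173206612-173218923, minus strand) stood at 22.5, 21, 24.5 and 17.1 CPM in the 7-day ONH and at 8.31, 6.52, 1.99 and 5.22 in the 7-day ONP. At 30 days it ran from 6.68 through 22.3 to 30.1 in the ONH and from 0.216 through 1.55 to 6.01 in the ONP. Every ONH library was above every ONP library of the same day, a 3.96-fold difference at 7 days (log2FC 1.98 ± 0.40 SE, adjusted p = 0.00899) and a 7.43-fold one at 30 days (2.89 ± 0.57, adjusted p = 0.00088). Its ONH mean was 21.3 ± 3.15 CPM at 7 days and 19 ± 9.21 at 30 days (SD, n = 4 and 7), so the spread at 30 days covered the earlier level. Ddx58, the gene for the RNA sensor RIG-I, was at 34, 27.4, 31.3 and 60.2 CPM in the 7-day ONH, at 44.9, 16.7, 21.9 and 17.7 in the 7-day ONP, at 15.4 to 32.5 (median 19.98) in the 30-day ONH and at 15.04 to 25.9 (median 17.8) in the 30-day ONP. The groups overlapped throughout, with a log2FC between the regions of 0.61 ± 0.36 at 7 days (adjusted p = 0.288) and 0.35 ± 0.19 at 30 days (adjusted p = 0.151). Ifih1 and Dhx58, at group means between 5.01 and 17.7 CPM, were not called in any comparison either.

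Of the transcription factors that carry the signal, none was called higher in the ONH by edgeR without the block, while Irf1 and Irf7 were with it at 30 days and Irf7 was by DESeq2 at 7 days (adjusted p = 0.041). Stat2, the subunit that ties the type I complex together, was the only member lower there. Its CPM was 43, 13.3, 13.8 and 32.6 in the 7-day ONH, 38.9, 25, 21.9 and 23.4 in the 7-day ONP, 7.08 to 15.9 (median 10.4) in the 30-day ONH and 13.3 to 22.6 (median 18.1) in the 30-day ONP. The regions overlapped widely at 7 days (log2FC -0.07 ± 0.38, adjusted p = 0.924) and at their edges at 30 days, where the ONH was 1.57-fold lower (log2FC -0.65 ± 0.19, adjusted p = 0.0118). Irf9, its DNA-binding partner, stood at 99.3, 68.1, 42.6 and 86.8 CPM in the 7-day ONH, 90.8, 51.3, 50.9 and 63 in the 7-day ONP, 45.7 to 64.6 (median 50.7) in the 30-day ONH and 47.9 to 79.8 (median 50.1) in the 30-day ONP. The ranges of both regions overlapped at both times (30-day log2FC -0.02 ± 0.13, adjusted p = 0.906). Irf7, which amplifies type I interferon production, had a log2FC between the regions of 1.17 ± 0.41 at 7 days (adjusted p = 0.0902) and 0.88 ± 0.38 at 30 days (adjusted p = 0.0785), and of 1.36 ± 0.32 (adjusted p = 0.00449) at 30 days without pool 7. For Irf1 the corresponding values were 0.64 ± 0.27 (adjusted p = 0.149) and 0.30 ± 0.15 (adjusted p = 0.108).

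The IFIT proteins bind viral RNA, and Ifit3, Ifit3b and Ifit1 were among the 6 members with the highest levels per length, but none of the 4 IFIT genes was called in any comparison by edgeR. DESeq2 called Ifit1 lower at 30 days in the ONH (adjusted p = 0.0399) and in the ONP (adjusted p = 0.0387). Ifit3 stood at 1443, 1059, 910.5 and 1504 CPM in the 7-day ONH and at 1200, 589, 439 and 463 in the 7-day ONP. At 30 days it ran from 307 through 769 to 967 in the ONH and from 374 through 449.6 to 619 in the ONP. The ONP library 1 reached into the ONH range at 7 days, and the regions overlapped at both times (log2FC 0.89 ± 0.32, adjusted p = 0.0934 at 7 days, and 0.54 ± 0.23, adjusted p = 0.0717 at 30 days). Ifit1 had the largest difference over time of the family in the ONH (log2FC -1.32 ± 0.37, adjusted p = 0.189), from a mean of 338 ± 205 CPM (SD, n = 4) to 135 ± 52.9 (n = 7). In the ONP it went from 165 ± 59.8 to 107 ± 25.7 (log2FC -0.66 ± 0.22, adjusted p = 0.0561). All 4 IFIT members were among those at an unadjusted p under 0.05 in the ONH over time. Reads of Ifit3 and Ifit3b are hard to assign, since 61.8% and 55.3% of their 31-base words also occur in other genes, and their values are uncertain to that extent.

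**Figure D4:**
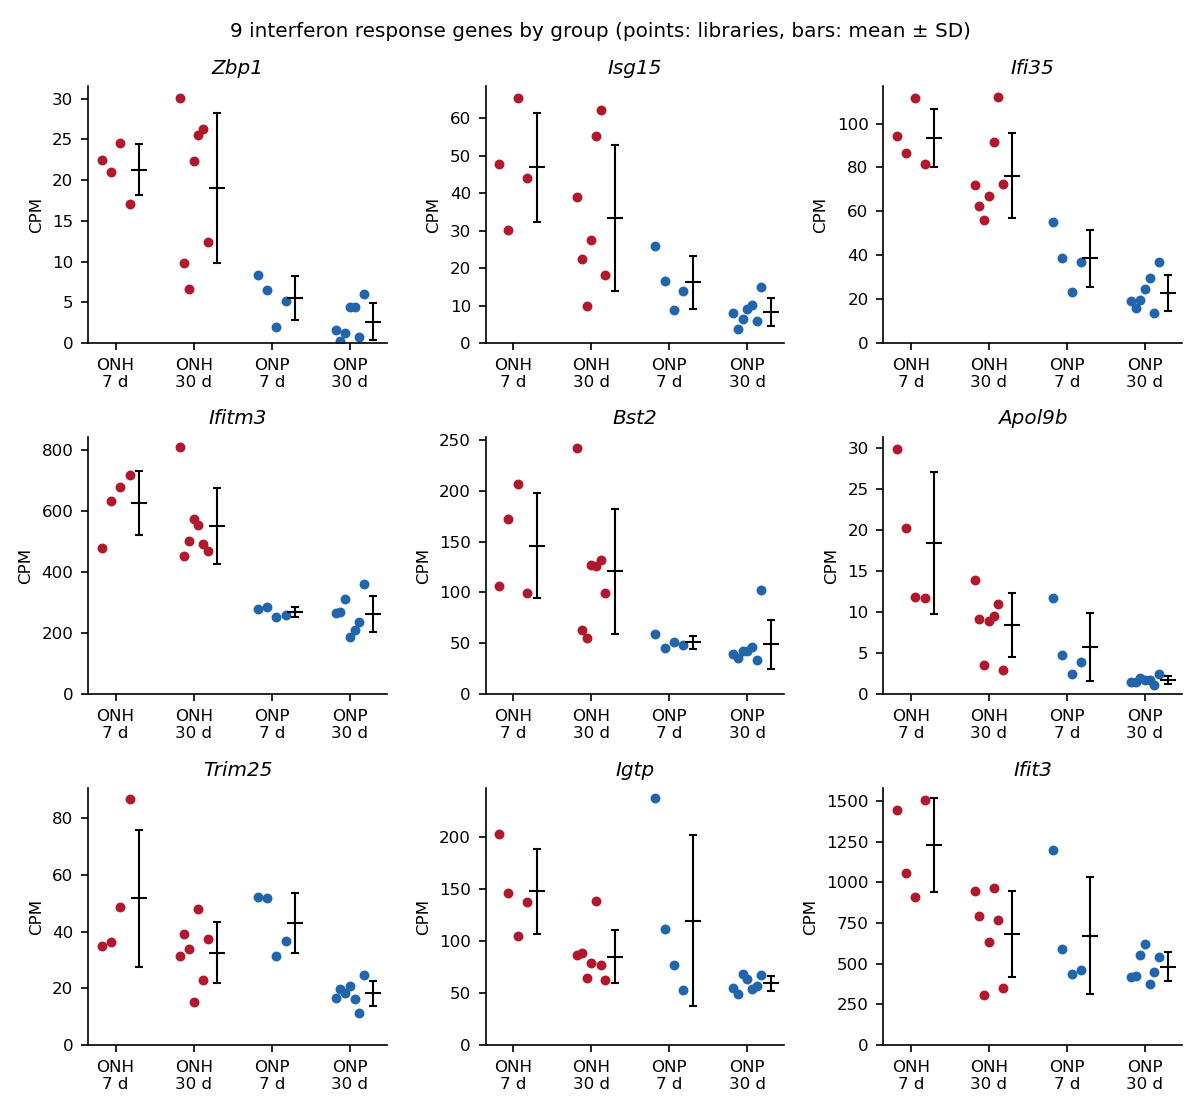
CPM (vertical axes, linear from 0) of 9 members in the 4 groups, with ONH in red and ONP in blue, each point being 1 library and the bars the mean ± SD. For Zbp1, Isg15, Ifi35 and Ifitm3 the ONH points lie above or nearly above the ONP points at both times, whereas for Trim25 the 30-day ONP points lie below all 7-day ONP points.

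In the oligoadenylate synthetase (OAS) family, whose products activate RNase L, Oasl2 was higher in the ONH at 30 days. Oasl2 stood at 334, 371, 163 and 299.8 CPM in the 7-day ONH, 297, 148, 108 and 113 in the 7-day ONP, 99.5 to 259 (median 160.4) in the 30-day ONH and 69.6 to 167 (median 88.8) in the 30-day ONP. The 30-day groups overlapped but their centres differed 1.74-fold (log2FC 0.80 ± 0.23, adjusted p = 0.0103), and at 7 days a log2FC of similar size had an adjusted p of 0.145 (0.83 ± 0.35). Oas2 was close to the limit of detection, at 6.77, 0.0608, 0.274 and 1.26 CPM in the 7-day ONH, 0.0611, 1.15, 0.0828 and 0.882 in the 7-day ONP, 0.157 to 1.01 in the 30-day ONH and 0.346 to 0.812 in the 30-day ONP. ONH library 1 of day 7 was the highest of all by a wide margin, and 4 of the 22 libraries had 3 counts or fewer. For Oas1a, 68.8% of its 31-base words also occur in other genes, mainly Oas1g.

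Of Isg15 and the genes of ubiquitin and ADP-ribose modification, 4 of 6 were called higher in the ONH at 30 days, beside 21.8% of all genes. At 7 days 1 of 6 was, Isg15, beside 6.34%. Isg15 (chr4:156199424-156200818, minus strand), whose product is attached to other proteins much as ubiquitin is, stood at 47.9, 30.2, 65.5 and 44.1 CPM in the 7-day ONH and at 25.8, 16.4, 8.86 and 13.9 in the 7-day ONP. At 30 days it ran from 9.94 through 27.4 to 62.1 in the ONH and from 3.67 through 8.01 to 15 in the ONP. The 7-day groups did not overlap and the 30-day groups did, with a 2.96-fold difference at 7 days (log2FC 1.56 ± 0.35, adjusted p = 0.0143, or 0.0543 without ONP library 6) and a 4.14-fold one at 30 days (2.05 ± 0.38, adjusted p = 0.000521). Usp18, the protease that removes Isg15 and damps type I signalling at the receptor, was at 149, 106, 154 and 241 CPM in the 7-day ONH, 199, 77.6, 41.6 and 80.0 in the 7-day ONP, 26.2 to 159.6 (median 84.7) in the 30-day ONH and 26.5 to 81.7 (median 46.4) in the 30-day ONP. Its 30-day difference (log2FC 0.88 ± 0.33, adjusted p = 0.0411) was lost in 9 of 14 fits that each left out 1 library, with adjusted p up to 0.105.

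Trim25, a ubiquitin ligase that activates RIG-I, changed most clearly with time. Trim25 (chr11:88999376-89020293, plus strand) stood at 52.1, 51.8, 31.2 and 36.7 CPM in the 7-day ONP and from 11.1 through 18.3 to 24.7 in the 30-day ONP. All 7 later libraries lay below all 4 earlier ones, a 2.42-fold fall (log2FC -1.27 ± 0.20, adjusted p = 0.00207) that kept its call in all 11 fits with 1 library left out. In the ONH it was at 34.9, 36.4, 48.8 and 86.8 CPM at 7 days and at 15.2 to 48.1 (median 33.9) at 30 days, where the times overlapped (log2FC -0.66 ± 0.30, adjusted p = 0.352). The regions overlapped at 7 days (log2FC 0.29 ± 0.31, adjusted p = 0.576) and Trim25 was 1.84-fold higher in the ONH at 30 days (log2FC 0.88 ± 0.22, adjusted p = 0.00462). Parp14, an ADP-ribosyltransferase, stood at 8.63, 8.46, 14.5 and 16.3 CPM in the 7-day ONH, 14.5, 15.9, 8.36 and 8.63 in the 7-day ONP, 5.97 to 16.7 (median 14.4) in the 30-day ONH and 1.84 to 9.38 (median 5.6) in the 30-day ONP. The regions had the same range at 7 days (log2FC 0.04 ± 0.35, adjusted p = 0.954), and the ONH was 2.3-fold higher at 30 days (log2FC 1.2 ± 0.31, adjusted p = 0.00603). Its partner genes Dtx3l and Parp9, which overlap each other on opposite strands over 458 exon bases in a library type that does not record strand, were not called in any comparison.

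The other antiviral effectors held 5 of 7 members that were higher in the ONH at 30 days, among them 3 also called at 7 days. Of all genes, 21.8% were called higher in the ONH at 30 days and 6.34% at 7 days. Ifitm3 (chr7:141009586-141010770, minus strand) stood at 479, 632, 679 and 716 CPM in the 7-day ONH and at 279, 286, 251 and 259.8 in the 7-day ONP. At 30 days it ran from 451 through 500.5 to 811 in the ONH and from 188 through 267 to 359.7 in the ONP. No ONP library reached any ONH library of the same day, and the ratio was 2.37 at 7 days (log2FC 1.25 ± 0.16, adjusted p = 0.000877) and 2.15 at 30 days (1.11 ± 0.16, adjusted p = 7.1e-05). Over time its log2FC was -0.18 ± 0.18 in the ONH (adjusted p = 0.667) and -0.07 ± 0.15 in the ONP (adjusted p = 0.783). Bst2 (chr8:71534255-71537456, minus strand), or tetherin, which holds budding virus at the cell surface, was at 106, 172, 206 and 99.5 CPM in the 7-day ONH, 59.1, 45.1, 50.7 and 48.1 in the 7-day ONP, 55 to 242 (median 126) in the 30-day ONH and 33.9 to 102 (median 41.8) in the 30-day ONP. The regions were separate at 7 days (2.95-fold, log2FC 1.56 ± 0.26, adjusted p = 0.00306) and overlapped at 30 days (2.55-fold, log2FC 1.35 ± 0.31, adjusted p = 0.00275) through ONP replicate 7, the library at 102.

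Cmpk2, a mitochondrial nucleotide kinase next to Rsad2 in the genome, stood at 251, 129, 110.4 and 193 CPM in the 7-day ONH, 265, 121, 67.8 and 52.2 in the 7-day ONP, 52.1 to 203 (median 105) in the 30-day ONH and 49.97 to 69.2 (median 66.9) in the 30-day ONP. It overlapped between the regions at 7 days (log2FC 0.45 ± 0.47, adjusted p = 0.563) and was 1.92-fold higher in the ONH at 30 days (0.94 ± 0.25, adjusted p = 0.00629). Rsad2 itself, which encodes viperin, was also higher in the ONH at 30 days (log2FC 1.16 ± 0.32, adjusted p = 0.0084), at a mean of 26.9 ± 12.1 CPM against 12.4 ± 5.49 in the ONP (SD, n = 7). Rtp4, a chaperone for receptors, was higher in the ONH at 30 days (log2FC 0.76 ± 0.22, adjusted p = 0.0128) and at 7 days (0.92 ± 0.26, adjusted p = 0.0405), the latter call being lost in 6 of 8 fits with 1 library left out. Mx1, an antiviral GTPase, and Samd9l were not called in any comparison, and Mx1 was at 0 in 1 of the 7-day ONP libraries.

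The guanylate-binding proteins and immunity-related GTPases attack the membranes of intracellular pathogens. Their genes were higher in the ONH at 30 days for 4 of 6, beside 21.8% of all genes. Gbp3 stood at 163, 201, 91.6 and 113 CPM in the 7-day ONH, 102, 54.3, 32.2 and 46.5 in the 7-day ONP, 49.7 to 122 (median 71.8) in the 30-day ONH and 34.2 to 59.9 (median 47.9) in the 30-day ONP. It was higher in the ONH at 7 days (2.46-fold, log2FC 1.30 ± 0.36, adjusted p = 0.0365, lost in 5 of 8 fits with 1 library left out) and at 30 days (1.87-fold, 0.90 ± 0.21, adjusted p = 0.00252). Iigp1 was at 33.6, 12.3, 11.7 and 35.8 CPM in the 7-day ONH, 27.5, 12.2, 5.59 and 8.25 in the 7-day ONP, 6.53 to 17.5 (median 15.5) in the 30-day ONH and 2.81 to 8.96 (median 5.99) in the 30-day ONP. The 30-day regions touched only at their edges (2.18-fold, log2FC 1.13 ± 0.29, adjusted p = 0.00571), and at 7 days the log2FC was 0.82 ± 0.53 (adjusted p = 0.342). Gbp2 stood at 257, 263, 145 and 197 CPM in the 7-day ONH, 239, 140.1, 101 and 89.8 in the 7-day ONP, 74.7 to 182 (median 104) in the 30-day ONH and 66.6 to 114 (median 81.4) in the 30-day ONP. The regions overlapped at both times, and its 1.4-fold difference at 30 days (log2FC 0.49 ± 0.19, adjusted p = 0.0482) was lost in 9 of 14 fits with 1 library left out.

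Igtp, also known as Irgm3, differed both by region and by time. It stood at 203, 146, 105 and 138 CPM in the 7-day ONH, 237, 112, 76.8 and 53.1 in the 7-day ONP, 62.4 to 139 (median 78.7) in the 30-day ONH and 49.1 to 68.9 (median 57.2) in the 30-day ONP. Of the 7-day ONP libraries, library 1 was highest and library 6 lay within the 30-day range. The fall in the ONP was 2.08-fold (log2FC -1.06 ± 0.30, adjusted p = 0.033). It was lost in 5 of 11 fits with 1 library left out, those without 30-day replicate 1, 2 or 6 and those without 7-day library 1 or 2, and was weakest without library 1 (log2FC -0.45, adjusted p = 0.144). In the ONH the log2FC over time was -0.79 ± 0.22 (adjusted p = 0.189). The ONH was 1.48-fold higher than the ONP at 30 days (log2FC 0.56 ± 0.15, adjusted p = 0.00782). Irgm1 and Gbp7, the remaining GTPases, were not called by edgeR, and DESeq2 called Gbp7 lower in the ONP at 30 days (adjusted p = 0.0255).

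The last 6 members have varied or less settled roles. Ifi35 (chr11:101448407-101458698, plus strand) had the smallest adjusted p of the list. It stood at 94.4, 86.6, 112 and 81.5 CPM in the 7-day ONH and at 55.1, 38.7, 23.2 and 37.1 in the 7-day ONP. At 30 days it ran from 56.1 through 71.9 to 112 in the ONH and from 13.5 through 19.4 to 36.9 in the ONP. The regions were separate at both times, 2.48-fold apart at 7 days (log2FC 1.31 ± 0.26, adjusted p = 0.00736) and 3.45-fold at 30 days (1.79 ± 0.21, adjusted p = 1.44e-05). An antisense gene, Gm11626, shares part of its sequence (12.8% of its 31-base words occur elsewhere). Xaf1, an inhibitor of the anti-apoptotic protein XIAP, was at 103, 95.1, 103 and 70.7 CPM in the 7-day ONH, 70.8, 60.9, 44.1 and 41.5 in the 7-day ONP, 62.5 to 109 (median 86.5) in the 30-day ONH and 28.5 to 62.2 (median 39.3) in the 30-day ONP. The 7-day regions met at a single library each, 70.7 against 70.8, and the difference was 1.75-fold (log2FC 0.81 ± 0.23, adjusted p = 0.0396, lost in 6 of 8 fits with 1 library left out). At 30 days it was 2.19-fold with no overlap (1.13 ± 0.17, adjusted p = 9.39e-05).

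Apol9b, of the apolipoprotein L family, stood at 29.9, 20.2, 11.8 and 11.6 CPM in the 7-day ONH, 11.7, 4.73, 2.4 and 3.87 in the 7-day ONP, 2.97 to 13.8 (median 9.1) in the 30-day ONH and 1.11 to 2.48 (median 1.73) in the 30-day ONP. The 30-day ONP libraries lay below all 30-day ONH libraries and met the 7-day ONP only at its lowest value. They were 5.06-fold below the ONH of the same day (log2FC 2.34 ± 0.33, adjusted p = 5.52e-05) and 3.42-fold below the 7-day ONP (log2FC -1.77 ± 0.38, adjusted p = 0.00988). The 7-day regions met at 1 library (log2FC 1.72 ± 0.51, adjusted p = 0.0504). As 64.9% of its 31-base words also occur in other genes, mainly Apol9a, the counts of both were also summed. This alternative was not planned in advance. With it the 7-day difference was 2.03 on the log2 scale (edgeR adjusted p = 0.0125). Ifi44 was at 34.7, 36, 5.97 and 24.4 CPM in the 7-day ONH, 8.92, 7.99, 4.35 and 5.98 in the 7-day ONP, 4.04 to 34.3 (median 13) in the 30-day ONH and 0.821 to 10.9 (median 2.14) in the 30-day ONP. ONH library 5 was the low exception at 7 days, and Ifi44 was higher in the ONH at 7 days (3.75-fold, log2FC 1.91 ± 0.49, adjusted p = 0.0273, lost in 6 of 8 fits with 1 library left out) and at 30 days (4.3-fold, 2.10 ± 0.56, adjusted p = 0.0072). Lgals3bp, a secreted glycoprotein, stood at 226, 228, 115 and 365 CPM in the 7-day ONH, 129, 149, 92 and 158 in the 7-day ONP, 93.3 to 418 (median 183) in the 30-day ONH and 53.7 to 509.6 (median 86.3) in the 30-day ONP. Its highest value was that of ONP replicate 7, with which the 30-day log2FC was 0.52 ± 0.47 (adjusted p = 0.4) and without whose pool it was 0.94 ± 0.29 (adjusted p = 0.0187). Ifi27 was not called, at log2FC 0.41 ± 0.18 at 7 days (adjusted p = 0.169) and 0.41 ± 0.16 at 30 days (adjusted p = 0.0507).

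Within a group many members had their highest or lowest value in the same library. The same counts were not made over all genes, so they are not shown to be particular to the members. In the 7-day ONP, library 1 held the highest value of 33 of the 40 members and library 5 the lowest of 24. In the 30-day ONP, replicate 7 held the highest value of 25 members. In the 7-day ONH, library 6 held the highest of 16 and library 1 of 14, while library 5 held the lowest of 20. The 30-day ONH was more mixed, with replicate 5 highest for 16 members and replicate 3 lowest for 17. Microglia and macrophages are known for strong interferon responses. Of 11 microglia markers, none was called between the regions at 7 days (median log2FC -0.55) and 1 was lower in the ONH at 30 days (median -0.46). Of the monocyte and macrophage markers, none of 5 tested was called at 7 days (median log2FC 1.47) and 1 of 6 was lower in the ONH at 30 days (median 0.07), and none was called over time, with medians of -0.61 in the ONH and 0.60 in the ONP. Of 5 fibroblast markers, 1 was higher in the ONH at each time (median 1.17 at 7 days and 0.17 at 30 days), and over time the medians were -1.50 in the ONH and -0.48 in the ONP, with none called. Oligodendrocyte markers were lower in the ONH for 8 of 8 at 7 days and 7 of 8 at 30 days, and all 5 pigment cell and all 4 photoreceptor markers were higher in the ONH at both times. Endothelial markers, 11 in all, had 1 called higher in the ONH at 7 days and 2 at 30 days. Over time in the ONP, 8 of 11 endothelial markers were lower at 30 days (median log2FC -2.26), as were 6 of 8 oligodendrocyte markers, and no microglia marker was called. In the ONH over time none of these markers was called, with a median of -1.98 for the endothelial ones. Markers of T or NK cells summed to 0.856 to 18 CPM and those of neutrophils to 0.653 to 39.6 over all libraries, with 3 of 4 neutrophil markers at 0 in every 7-day ONH library. The part of RNA from any of these cell types, microglia and macrophages included, in the members' differences was not tested. With both 30-day libraries of pool 7 left out, which held the highest microglia sums, 24 members were called between the regions at 30 days, beside 38.8% of all genes, and the median log2FC was 0.85.

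**Figure D5:**
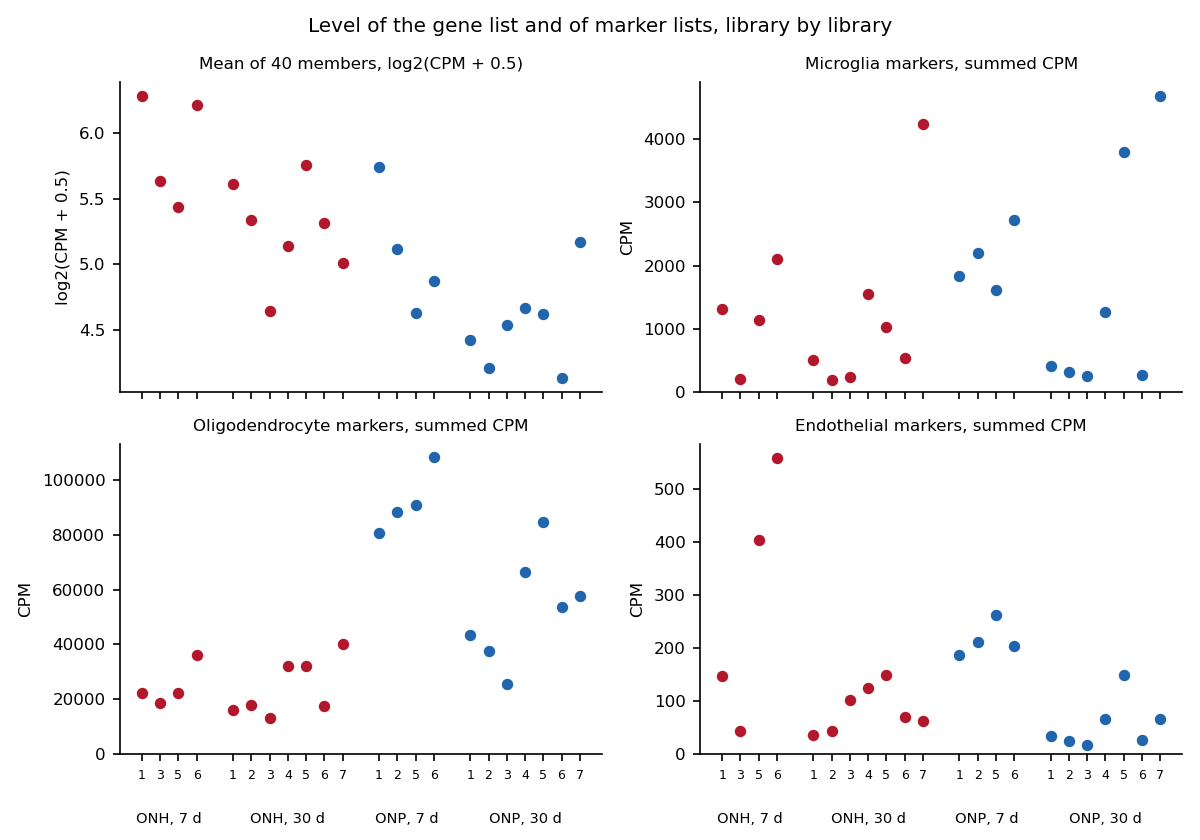
Mean log2(CPM + 0.5) of the 40 members (first panel) and summed CPM of the microglia, oligodendrocyte and endothelial markers (other panels) in each of the 22 libraries, in order of group and library number, with ONH in red and ONP in blue. The member means of the 30-day ONP run from 4.13 to 4.67 except for replicate 7 at 5.17, which also has the highest microglia sum at 4690 CPM. Replicate 5 of the 30-day ONP, with a microglia sum of 3792 CPM, has a member mean of 4.62. The 30-day ONH replicate 7, with a microglia sum of 4239 CPM, has a member mean of 5.01, below its group's mean of 5.26. The oligodendrocyte sums are higher in the 7-day ONP than in any other group but for single 30-day ONP libraries.

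The rest of the interferon pathway was examined in a list of 91 genes outside the 40, of which 85 were in the table. Of 10 ligand genes listed, 4 were present, and none had enough counts to be tested. The highest count in any library was 6 for Ifnb1, 4 for Ifng, 2 for Ifnk and 21 for Ifnz. The receptors were well represented. Ifnar1, a chain of the type I receptor, was at 62.1 ± 18.05 CPM (SD, n = 4) in the 7-day ONH, 71.1 ± 4.36 (n = 4) in the 7-day ONP, 44.0 ± 7.77 (n = 7) in the 30-day ONH and 62.6 ± 3.69 (n = 7) in the 30-day ONP, and it was lower in the ONH at 30 days (log2FC -0.47, adjusted p = 0.0029). Ifngr1, which binds type II interferon, had group means between 106 and 140.5 CPM.

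At 30 days 23 of the 77 pathway genes tested were higher and 9 lower in the ONH, beside 21.8% and 20% of all genes, with a median log2FC of 0.33. All 16 called among the 48 tested interferon-induced genes outside the list were higher. Among the pathway genes with the smallest adjusted p were Nmi (log2FC 0.92), Gbp4 (1.72), Ifitm2 (0.97), Tor3a (0.86), Irf3 (0.54), Ptpn2 (0.62), Cxcl10 (1.73), Eif2ak2 (0.79) and Ifitm1 (1.42). Besides Ifnar1, the lower ones, named after their values were seen, were Adar and Pias1, the kinases Jak2, Tyk2 and Tbk1, the adaptors Mavs and Ticam1 and the RNA receptor Tlr3. At 7 days 6 of 77 were higher, beside 6.34% of all genes, and none lower. They were Ifitm2 (1.14), Nmi (0.79), Isg20 (1.60), Oas1g (2.6), Plscr1 (0.91) and Tor3a (0.93), with a median of 0.60.

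Over time in the ONP, 7 of 78 pathway genes fell, a share near the 9.21% of all genes called lower. Among them were Pnpt1 (log2FC -0.62), Tgtp1 (-2.27), Ifitm1 (-1.34), Irf3 (-0.35), Oasl1 (-1.60) and Cxcl10 (-1.33), and the median was -0.37 with 68 of 78 below 0. Cxcl10, a chemokine that draws T cells, was at 104 ± 70.3 CPM in the 7-day ONP (SD, n = 4) and 42.5 ± 10.9 in the 30-day ONP (n = 7), and at 203 ± 102 and 137 ± 89.5 in the ONH. In the ONH over time none of the 78 was called, with a median of -0.53 and 69 below 0. In the interaction none of 79 was called, with a median of 0.21.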

How the data were processed

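Ribosome-bound mRNA was sequenced in 22 libraries. Per the study's methods, the authors aligned reads with STAR 2.6.1d to mm10, quantified transcripts of Ensembl 94 with Salmon 0.14.2, and deposited estimated counts per gene, summed with tximport and not normalized, as whole numbers after a gene filter whose rule is not given in the sources used here. A variance-stabilized copy of the table was not used. They used R 4.1.0 and DESeq2 1.34.0, with library preparation and sequencing done together for all samples. The kit does not record strand. The table holds 22 library columns and no column of another sample.

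Here the counts were tested as deposited in R 4.3.3 with the quasi-likelihood test of edgeR 4.0.16 (TMM scaling, filterByExpr), each pair of groups in a fit of its own and the interaction in a fit of all 4, with p-values adjusted by Benjamini-Hochberg over the genes tested in that fit and a threshold of 0.05. DESeq2 1.42.0 and limma 3.58.1 (limma-voom) were alternatives. The method was tested on simulated data. CPM values use TMM library sizes over all 22 libraries. Errors of log2FC are the log2FC divided by the root of the F statistic. The members and lists were chosen with earlier results of these data known. Values per library are given for members called, at most 14 by adjusted p, for the highest member of each role group, and for the 3 with the largest interaction, and Stat2 was added after its values were seen. Values of 1 gene on the pathway list are not reported here. Sequence shared between genes was counted in 31-base words of GENCODE M21 transcripts, and promoters came from RefSeq.

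Per the study's methods both regions of a pool were taken from the same mice. Among 30-day libraries, deviations from the group means correlated at 0.107 to 0.547 within all 7 pairs, and the own number was the best match in 3 of 7. The 7-day columns carry library numbers other than the replicate numbers of the labels. Both regions have 1, 5 and 6, whose deviations correlated at 0.0114, 0.0278 and 0.182, and no source used here says that they mark a pool, so they were paired only in an added alternative. No 2 libraries of a group agreed within sampling noise. Each pool of mice counts as 1 replicate. Where counts are at 0, intervals and limits cover counting error only.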

Additional observations from a re-analysis of the deposited data

Results flagged for a closer look

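Of 88 sets of values (22 members in 4 groups), 8 had a library that stood apart from the others of its group by Dixon's test, and chance alone would do this in about 1 in 20 sets. In 30-day ONP replicate 7, which also had the highest microglia marker sum of its group, 5 members stood apart. Bst2 was at 102 CPM there (nearest other library 46.1), Lgals3bp at 510 (165), Xaf1 at 62.2 (42.6), Ifi44 at 10.9 (4.6) and Ddx58 at 25.9 (19.2). No member was flagged in 30-day ONP replicate 5, whose microglia marker sum was 3792 CPM. In 30-day ONH replicate 1, Ifitm3 was at 811 CPM (574) and Bst2 at 242 (132). In 30-day ONH replicate 5, Igtp was at 139 CPM (88.3). Without both 30-day libraries of pool 7, the log2FC of Bst2 in the ONP from 7 to 30 days was -0.38 (adjusted p = 0.0476), against -0.09 (adjusted p = 0.836) with them.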

How the results depend on the processing

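No called difference of the 40 members changed sign under any alternative (DESeq2, limma-voom, other scalings and filters, a single fit of all groups, the replicate block, and each library left out), and the medians moved by less than the spread between libraries in all of them. The number of members called from 7 to 30 days in the ONH was 0 (0% of all genes). It was 4 with DESeq2 (2.49% of all genes called) and 2 with a single fit of all groups (1.74%). With 1 library left out it was 0 to 1 (0% to 1.04%). In the ONP the number was 3 (17% of all genes). It was 14 with DESeq2, 5 with limma-voom and 11 without both libraries of pool 7, which called 20.2%, 20.5% and 16.5% of all genes. The last of these alternatives was chosen after seeing the data. With 1 library left out the number of members was 2 to 11 (9.12% to 20.9% of all genes). Between the regions at 30 days it was 20 (41.8%), and 18 to 24 with 1 library left out (37% to 41.9%). At 7 days it was 9 (13.2%), and 4 to 14 with 1 library left out (7.26% to 15.8%). For the interaction it was 0 throughout. The cause was not tested. With 1 library left out, the medians ranged from -0.83 to -0.57 in the ONH and from -0.74 to -0.27 in the ONP over time, from 0.59 to 0.83 between the regions at 30 days, from 0.60 to 1.09 at 7 days, and from -0.04 to 0.46 for the interaction.

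At 30 days equal replicate numbers were taken as pairs from the same mice, which the labels do not state, and entered as a block. With this block 23 members were called, beside 44.4% of all genes. The median was 0.78 against 0.66 without the block, and 5 calls were gained and 2 lost. The correlation of the pairs as an estimated block in the interaction gave 0 calls. At 7 days the block was run only over the column numbers found in both regions, which may or may not mark a pool (chosen after seeing the data). It called 7 members (5.89% of all genes), and the same 6 libraries without the block called 5 (6.12%), against 9 with all 8 (13.2%). Scaling by library size alone moved the median of all genes from -0.01 to 0.11 in the ONP over time, where the members' median was -0.46, and from 0.07 to 0.18 between the regions at 7 days, where it was 0.94. Some libraries had 3 counts or fewer of Oas2 or Mx1, and those values are limited by depth. With 4 libraries per region at 7 days the calls at that time depend on single libraries.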
